A study of Mus musculus with 2 samples.

Results

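Small RNA reads of piRNA size were followed here over the 3' UTRs of protein-coding genes in the mouse testis. A 3' UTR was taken as the annotated bases after the stop codon of a nuclear coding gene in GENCODE M21 (assembly GRCm38). It was included where at least 100 sense reads of 24 to 32 nt, with 1 place among the annotated transcripts, started inside it in the summed tables. Of 21938 nuclear coding genes 21020 had a 3' UTR, and 1893 of these UTRs (9.01%) met the rule. A further 10453 UTRs had 1 to 99 such reads, and 8674 had 0. A count of 0 allows up to 3 reads, which is 0.0552 reads per 1000000 reads (RPM) at the depth of one table and 0.0478 at that of the other. Members were thus chosen by the measured number of reads, which describes them and supports nothing.

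The labels describe testes of mice aged 23 days post partum on the C57BL/6 background, heterozygous (Stambp-ps1+/-) or homozygous (Stambp-ps1-/-) for a mutation of the pseudogene Stambp-ps1. They do not say how the locus was changed or how many animals were pooled. Both deposited tables are recorded under the Stambp-ps1-/- sample, while their names carry KO in one case and het in the other. For that reason they are referred to as KO-named and het-named, with no genotype given to either. They comprised 54384974 (KO-named) and 62773871 (het-named) reads, whose lengths ran from 18 to 32 nt. Each table is 1 library, so nothing was replicated and groups were not tested. All intervals are exact 95% intervals for counting error alone, since PCR copies could not be told from separate molecules.

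PIWI-interacting RNAs (piRNAs) are germ-line small RNAs that guide PIWI proteins, and most of them begin with U. In mammals many come from long noncoding precursors, while another class is cut from mRNAs, mainly from their 3' UTRs. In the mouse testis MILI (Piwil2) carries shorter piRNAs and MIWI (Piwil1), made from the pachytene stage of meiosis on, carries longer ones. Neighbouring piRNAs can be cut one after another along a precursor, so that the end of one meets the start of the next, although later trimming of 3' ends can hide this.

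The most frequent reads of several leading UTRs, and of the Stambp UTR described further on, show the form most members shared, an initial U. They are given 5′ to 3′ as deposited, with T for U and the first base in capitals, and only the most frequent read of each of these UTRs is shown.
Asb1, chr1:91556469-91556498, plus strand: Tctgaatgtgacacagcatcggcatggact
Cbl, chr9:44149032-44149060, minus strand: Tcaattggttgagtgtttgtctggcattc
Ddx19b, chr8:111005534-111005559, minus strand: Tagaaccaggattctgctcacttgcc
Ago2, chr15:73099337-73099366, minus strand: Tagctgcagacagataacacatttaacaat
Nr2c2, chr6:92170055-92170084, plus strand: Tgatttatgagtctgtgatactccaagcct
Elfn2, chr15:78670211-78670236, minus strand: Tacatgagataagagatttgtgactc
Stambp, chr6:83543381-83543408, minus strand: Tgcaaaactgtagaagccattttgaagg

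Members whose most frequent read began with another base are shown for contrast, since the first-base results below turn on them. The last read, from the Vmp1 UTR, does begin with U and is shown because it lies in the miRNA gene Mir21a.
Lars2, chr9:123461821-123461848, plus strand: Acagaaacctcccgtggagcagaagggc
Piwil2, chr14:70373601-70373630, minus strand: Gtgaaagacatgtagaaaaaccagcgtagg
Paqr8, chr1:20935924-20935951, plus strand: Cagaaattctaggtcaccctctgacata
Cnr2, chr4:135919912-135919941, plus strand: Caggaatgcaaagttactgtagctgtaagt
Mob2, chr7:142009022-142009050, minus strand: Attcaacaaacatttattggactgatgtt
Vmp1, chr11:86584118-86584141, minus strand: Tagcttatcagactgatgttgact

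The reads were spread very unevenly over the 1893 UTRs. The member UTRs held 1122663 KO-named and 1161142 het-named reads, which was 2.60% and 2.47% of all reads of 24 to 32 nt and 18.5% and 18.6% of those with 1 place. The median member had 281 reads in the summed tables, 605 members had at least 500, and 23 had at least 10000. The 12 UTRs with most reads took 39.5% of the members' reads and 31 UTRs took 50%. At the minimum itself, Clgn, Baz1b and Atg4d lay just inside with 100 reads each, and Khsrp, Vps26a and Trim11 lay just outside with 99 each.

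Nemp1 (ENSMUSG00000040195.11, UTR at chr10:127694659-127701049, plus strand) encodes a membrane protein of the nuclear envelope. Its UTR had 92033 KO-named and 91983 het-named reads, or 1692 and 1465 RPM. A single start position gave 45.7% of them, and 97.4% of the reads began with U. Asb1, a substrate adaptor of a cullin ubiquitin ligase, followed with 41270 and 39643 reads. Its reads were far more dispersed, with 5.57% at the leading of 1706 starts. Cbl, a ubiquitin ligase for receptor tyrosine kinases, had 40652 and 39324 reads from 2551 starts. Per 1000 nt the Cbl UTR had 9447 reads and the Cbl coding sequence 114, so the reads of this gene lay almost wholly after the stop codon.

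Tbl2, a protein of the endoplasmic reticulum, had 38544 and 37538 reads. Ddx19b, a helicase of mRNA export, had 26303 and 24357. Ago2, the slicing Argonaute of the miRNA pathway, had 24910 and 23837 reads over a UTR of 11064 nt. The nuclear receptor Nr2c2 had 21015 and 20166. D10Wsu102e had 20556 and 20302 reads, but over an annotated UTR of 122583 nt, so that its 333 reads per 1000 nt were the lowest density among the 12 leading UTRs. The transmembrane protein gene Elfn2 had 16354 and 16382 reads, and Eif4ebp2, a repressor of translation initiation, 11024 and 10707. In the UTRs from Asb1 to Eif4ebp2 named here, and in Nemp1, the KO-named table was slightly higher in RPM, with log2 ratios from 0.20 to 0.32.

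Lars2 (ENSMUSG00000035202.8, UTR within chr9:123395129-123462664, plus strand), the mitochondrial leucyl-tRNA synthetase, had the most reads of all, 59103 KO-named and 140306 het-named, but its reads lacked the common form. Only 23.6% of them began with U (23.4 to 23.8), against 25.9% U among the bases of the UTR. Its coding sequence had 27 reads in all. Places were judged among annotated transcripts alone, so whether the reads counted in the Lars2 UTR came from another sequence was not tested. Because Lars2 held 8.72% of the members' reads, shares over all members are given with and without it.

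**Figure D1:**
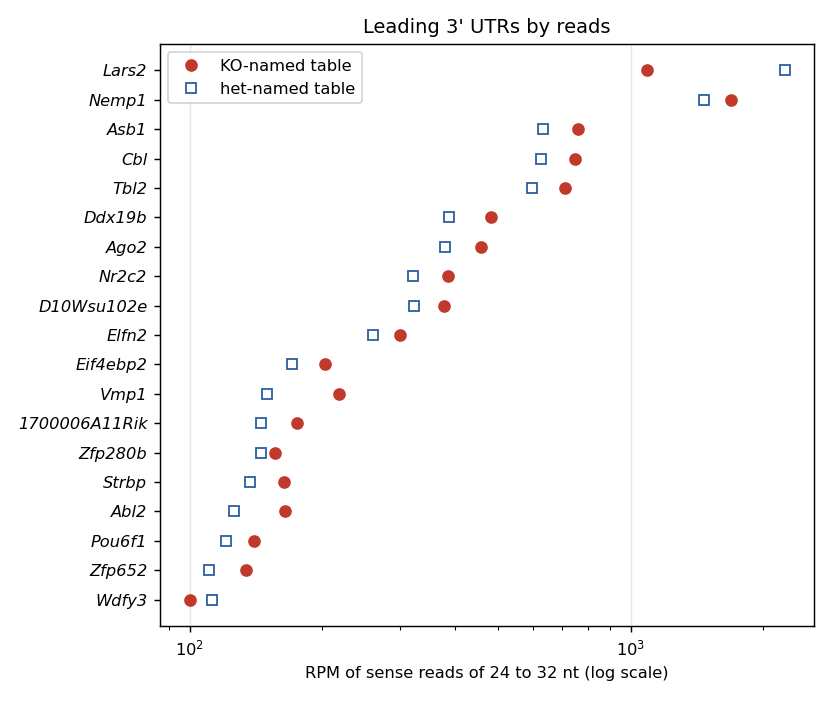
RPM of sense reads of 24 to 32 nt (log axis) in the KO-named (filled circles) and het-named (open squares) tables for leading 3' UTRs among the 20 with most reads; each point is 1 library, with no error bar. Lars2 (1087 and 2235) and Wdfy3 (100.1 and 112.7) are the UTRs in which the het-named table is higher.

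A first U marked nearly every member. Of the KO-named member reads 84.8% (84.7 to 84.9) began with U, and of the het-named ones 80.1% (80.0 to 80.2) did. Without Lars2 the shares were 88.2% (88.2 to 88.3) and 87.8% (87.8 to 87.9), so most of the gap between the tables went with that UTR. The median member had 85.4%, with 90 in 100 members between 67.0% and 93.0%, while U made up 29.2% of the bases of the median UTR. The first-U share was above the UTR's own U content in 1885 members and not above it in 8. It was at least 75% in 1664 members (87.9%). Of all 4785 annotated genes with at least 100 sense reads, 61.6% reached that share.

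**Figure D2:**
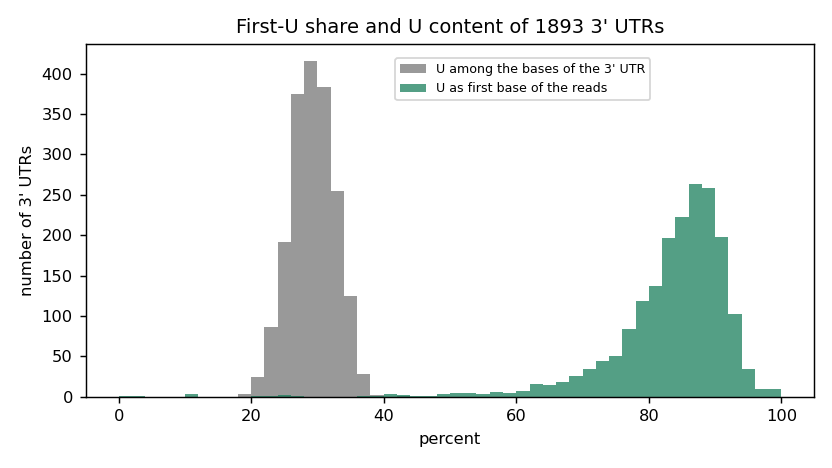
Number of 3' UTRs (vertical axis, bins of 2 percentage points) by the U content of the UTR's bases (grey) and by the share of its reads that began with U (green), tables summed. The medians are 29.2% and 85.4%, and the 23 UTRs with a first-U share below 50% form the thin tail on the left.

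The first U was somewhat more frequent in abundant sequences than in rare ones. It was 76.9% when every distinct sequence counted equally and 72.6% among 363669 sequences read a single time. Among the 2240 sequences with at least 100 reads it was 78.1%. By number of reads, the median member of those with under 200 reads had 82.9% and that of the 23 members with at least 10000 had 91.3%. Other sources were measured the same way. Coding sequences with at least 100 reads (2054 genes) had 81.2% in the summed tables, noncoding genes (314) 85.0% and 5' UTRs (179) 80.3%, against 82.4% for the member UTRs and 88.0% for these without Lars2. Among 796 genes with at least 100 reads in both regions, the first-U share was higher in the 3' UTR in 574 and lower in 222, with medians of 85.9% and 79.4%.

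The highest first-U shares among members with at least 500 reads belonged to Vmp1 (99.8%), Sdf2l1 (98.3%), Vmn2r31 (97.8%) and Nemp1 (97.4%). Of the Vmp1 reads 99.8% came from a single start inside Mir21a and most were 24 nt long, so this UTR entered through an annotated miRNA. In 23 members at least 50% of the reads lay in another gene annotated on the same strand. The Sdf2l1 UTR, of a chaperone partner in the endoplasmic reticulum, is only 369 nt long, and 74.6% of its reads shared a start. Vmn2r31 encodes a vomeronasal receptor and had 14 starts over 5734 nt. These 3 high shares thus each rested on few starts, whereas Nemp1 had 1594.

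A first-U share below 50% was found in 23 members. Besides Lars2, the lowest shares among members with at least 500 reads were those of Tmem38b (11.9%), Paqr8 (38.1%) and Piwil2 (41.5%). Of the Tmem38b reads 99.8% lay in n-R5s185, annotated as ribosomal RNA within the UTR. Paqr8, a membrane progesterone receptor, had 872 KO-named and 793 het-named reads, of which 55.8% started at a single C. Piwil2, the PIWI protein MILI itself, had 788 and 719 reads. In it a start with G and with A at the tenth base gave 363 and 370 reads, the reads as a whole had A at the tenth base in 69.0%, and no antisense read was found. Smaller examples were Cnr2, a cannabinoid receptor (25.6%), and Mob2, a kinase regulator (11.6%).

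Most of these 23 members had a dominant start, with a median of 46.3% of reads at the leading position against 11.1% over all members. That position held A in 10, C in 7, G in 6 and U in 0 of the 23. Over all members it held U in 1744, C in 63, A in 51 and G in 35. The 23 were picked for a low first-U share, so the base and share of their leading start are partly set by that choice. The tenth base of the leading start was A in 9 of the 23, as in Piwil2, Cnr2 and Mob2. The matching count of leading starts over all members is not given here. By reads the 23 showed no excess of A at this base. Their median member had it in 25.4% of its reads, against 28.9% for the median of all members. Pooled over all member reads the value was 28.6%.

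Read lengths formed a double peak, and its balance differed strongly from gene to gene. Over all member reads the most frequent length was 30 nt, with 42.0% of reads between 26 and 28 nt and 42.7% between 29 and 31 nt. The typical UTR was nevertheless of the shorter kind. The median member had 54.3% in the shorter class of 26 to 28 nt and 32.1% in the longer one, and the shorter class was the larger in 1434 members and the smaller in 457. The most frequent length was 27 nt in 827 members and 30 nt in 319.

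The pooled value departed from the typical one through the leading UTRs. The median share of 29 to 31 nt was 31.3% in members with under 200 reads, 32.1% from 200 to under 500, 32% from 500 to under 2000, 35.7% from 2000 to under 10000 and 50.2% in the 23 with at least 10000. Nemp1 had 70.7% of its reads at 29 to 31 nt, Asb1 65.4%, Nr2c2 63.3% and Cbl 61.8%. Elfn2, among the same 12, had 26.4% there and 53.0% at 26 to 28 nt. The tables differed little, with 42.6% KO-named and 42.8% het-named over all members, and 43.1% and 44.3% without Lars2.

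At the ends of the range stood genes with unlike functions. The highest shares of 29 to 31 nt among members with at least 500 reads were in Sdf2l1 (92.7%), the signalling adaptor gene Sh2b3 (86.9%), the GTPase regulator gene Arhgap20 (81.6%), and Eri2, of an exonuclease family (78.4%). The lowest, apart from Vmp1, were in the membrane protein gene Tmem164 (9.14%) and in Mafg and Mxd4, both transcription factor genes (10.2% and 10.4%). In Mafg and Mxd4 over 80.0% of reads had 26 to 28 nt, 80.2% and 80.7%. In Arhgap20 only 13.4% did. Arhgap20 with 9601 reads in all and Mafg with 2410 came from 501 and 376 starts, so neither share rested on a single sequence.

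The length class was partly shared along a gene. Over 796 genes with enough reads in both regions, the share of 29 to 31 nt in the 3' UTR and in the coding sequence had a Spearman correlation of 0.50 across genes, given as a description because both regions come from the same libraries and genes are not replicates. The share was higher in the UTR in 478 and lower in 318, with medians of 33.3% and 28.8%. Pooled coding sequences peaked at 27 nt with 50.2% in the shorter class and 35.5% in the longer. Pooled noncoding genes peaked at 30 nt with 38.6% and 45%, so the UTRs lay between them.

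**Figure D3:**
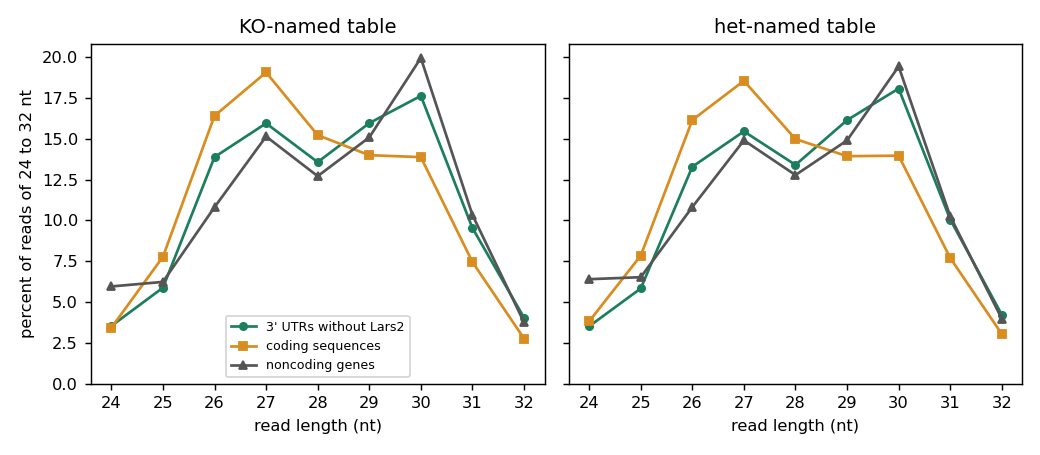
Percent of reads of 24 to 32 nt at each length in the KO-named (left) and het-named (right) table, for the member 3' UTRs without Lars2 (circles), coding sequences (squares) and noncoding genes (triangles). The UTRs and noncoding genes have their highest point at 30 nt and the coding sequences at 27 nt, in both tables.

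Because the tables end at 32 nt, longer reads could not be seen. In Tbl2, Vmn2r24, Mark2 and Sirt1 the most frequent length was 32 nt. The leading Tbl2 start gave 10076 KO-named and 9728 het-named reads, and 91.7% of them had 32 nt. Whether these reads were longer before the length limit was not tested.

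The spacing of reads along the UTRs showed at most a slight excess of end-to-start contact. Of the 3' ends of member reads, 24.2% were followed directly, at a distance of 1 nt, by another read start. At distances of 2 to 50 nt the share averaged 22.5% and ranged from 19.9% to 25.8%, with the highest value at 37 nt, so the value at 1 nt lay inside the range. With distinct sequences the shares were 12% and 11.5%. Coding sequences had a wider gap to the mean, 19.7% against 13.9%. Their range at 2 to 50 nt, 8.62% to 19.9% with the highest value at 7 nt, also held the value at 1 nt. Noncoding genes had 51.7% against 49.8%, within a range of 45.1% to 54.3%. Distances were taken along the genome, so starts beyond an intron were not counted at their distance in the mRNA. The base just after the 3' end was U in 30.2% of reads, beside 29.6% U in the member UTRs as a whole.

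Single UTRs differed in this measure. In Nr2c2 54.7% of ends were followed directly by a start, 1.76 times the mean of 31.1% at the other distances, and the next base was U in 47.9%. Nemp1 had 37.4% against 30.4%, and Tbl2 48.2% against 40.2%. Elfn2 had the opposite, 12.5% against 25.1%. Cbl, Ddx19b and Ago2 were within 3 percent of their mean, with ratios of 0.987, 1.01 and 1.02.

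Starts themselves lay close together. Of the distinct sequences, 29.6% had another start 1 nt downstream of their own. A start with several read lengths was counted several times in this share. The share declined to its lowest value of 10.7% at 26 nt before it reached 12.1% at 36 nt. The median gap between neighbouring starts was 7 nt and the median member had 110 starts, or 4.04 per 100 nt. A single start gave over 50% of the reads in 57 members. The same start led in both tables in 1248 of 1893 members, and in 478 of the 605 with at least 500 reads.

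**Figure D4:**
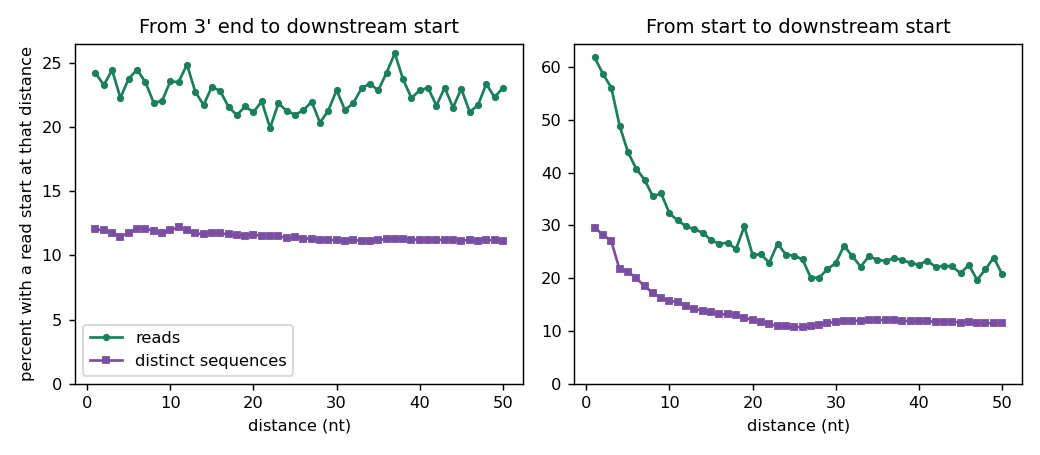
Percent of read 3' ends (left) or read starts (right) in member 3' UTRs that have another read start at each downstream distance from 1 to 50 nt, over reads (circles) and distinct sequences (squares), tables summed. On the left the value at 1 nt (24.2%) lies within the 19.9% to 25.8% seen at the other distances; on the right the distinct sequences fall from 29.6% at 1 nt to 10.7% at 26 nt.

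Along the gene, reads did not begin at the stop codon, and the number of distinct starts rose slowly beyond it while the share of reads did not. The members had 4.75 distinct starts per 100 nt in the last 100 nt of the coding sequence, 4.38 in the first 100 nt of the UTR and 5.48 between 1400 and 1499 nt, where 1620 members were still long enough to count. Reads per 100 nt, as a percent of the member's reads and averaged over members, were 5.37%, 4.36% and 3.57% in the same stretches. Reads in the coding stretch are not among the member's own by the rule. In the earlier stretches before the UTR the mean ran from 3.53% (501 to 600 nt) to 6.49% (401 to 500 nt). A few genes with many coding reads can carry such means. With each UTR divided into 10 pieces of equal length, the mean share of its reads was 7.96% in the first piece, 12.8% in the sixth and 4.67% in the last. Reads per nucleotide were higher in the UTR than in the coding sequence of the same gene in 1462 members and not higher in 431, and 25 members had 0 reads in their coding sequence. The rule asks for reads in the UTR and not in the coding sequence, so part of this is set by the choice of members. Member UTRs were long, with a median of 3320 nt against 866 nt in UTRs below the minimum, as a count that is not scaled to length favours.

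Members were rare on the X chromosome. Of 869 X-linked 3' UTRs 15 were members (1.73%), against 1878 of 19999 on the autosomes (9.39%), and on the Y chromosome 0 of 152 were. The X-linked members with most reads were Tmem164 (358 KO-named and 397 het-named) and the chloride transporter gene Clcn5 (342 and 330). Their counts were low beside the leading autosomal UTRs, but their first-U shares were 93.0% and 94.2%.

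Genes known for small RNA and mRNA control were examined as lists. Of 26 RNA-binding and decay factors 11 were members (42.3%, beside 9.01% of all UTRs). All 4 Argonaute genes were among them. Ago2 was followed by Ago3 with 1058 and 932 reads, Ago1 with 719 and 666 and Ago4 with 127 and 118. Ago1 had 20.6% of its reads at 29 to 31 nt and Ago2 48.7%, so paralogues differed in length class. Elavl1, which stabilises mRNAs, had 1218 and 945 reads, 31% of them at a single start. Xrn1, Celf1, Dazl, Ybx1, Cnot6 and Upf1 completed the list's members. The lists were made with earlier results known, and longer UTRs collect more reads, so the share describes the list alone.

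Of 24 genes of the piRNA pathway 6 were members (25%, beside 9.01% of all UTRs). Piwil2 led them, followed by Exd1, which acts in piRNA biogenesis, with 372 and 357 reads. Tdrkh, a Tudor protein that takes part in 3' trimming, had 200 and 204, and Tdrd1, which binds MILI, had 116 and 98. Henmt1, which methylates piRNA 3' ends, had 112 and 77, and Piwil1 had 47 and 70. The others, among them Ddx4 with 28 and Mael with 3 reads in all, did not reach the minimum. A list of 12 genic piRNA sources was made with earlier results of these data known. Of these, 9 were members (75%, beside 9.01% of all UTRs), Nemp1, Asb1, Ddx19b, Wdfy3, Kctd7, Ip6k1, Elk4, Mdc1 and Ctdspl. Kctd7 had 6460 and 5933 reads and Ip6k1 5360 and 5222. Phf20 (97 reads in all), Smyd5 (62) and Noct (21) were not members.

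Markers of germ cell stages and of other testis cells gave few reads beside the leading UTRs. The median was 25.5 reads in the spermatogonial list, 7 in the Sertoli, 6 in the spermatocyte and 2 in the Leydig list. It was 0 in the spermatid list and in that of blood and macrophages, and 2 over all UTRs. These tables count small RNAs and not mRNAs, so the markers show which UTRs gave reads and do not measure how many cells of a type were present. Of 10 spermatogonial markers 3 were members (30%, beside 9.01% of all UTRs), Lin28a (168 and 176), Dazl (122 and 109) and Zbtb16 (67 and 66). Of 15 spermatocyte markers only Piwil1 was (6.67%). Of 12 spermatid markers 0 were, and 7, including Prm1, Prm2 and Tnp2, had 0 reads. The UTRs of these 3 named genes are short, with 158, 190 and 141 nt. Those of Lin28a, Dazl and Zbtb16 have 2775, 1854 and 2845 nt. Counts are not scaled to length, so the lists cannot be compared by cell stage on these shares. The 9 Sertoli markers with a UTR summed to 22 KO-named and 56 het-named reads, with 0 members. The Leydig list summed to 88 and 91 reads, of which Star, the steroidogenic cholesterol carrier, had 84 and 87 beside 494 antisense reads. The 6 blood and macrophage markers had 1 read in all. Of 16 housekeeping genes, Tbp and Ywhaz were members, so the list's share was 12.5%, near the 9.01% of all UTRs.

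Antisense reads were few and lay in few UTRs. They came to 3.5% of the reads of both strands, 1136 members had 0, and 15 had more antisense than sense reads. Spin1 (26455), Zfp280b (11162) and D10Wsu102e (9196) held 56.4% of them. Among 19106 pairs of start positions on opposite strands that overlapped by 1 to 20 nt, 8.0% overlapped by 10 nt, the overlap left by reciprocal (ping-pong) cleavage, and the other overlaps took 3.32% to 5.47% each. Without those 3 genes, the 10-nt overlap took 8.21% of 14550 pairs, against 3.29% to 5.69%. Most members had no antisense reads to pair with.

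Between the tables the UTRs were shifted upward together in the KO-named table by a small amount. The log2 ratio of KO-named over het-named RPM, with 0.5 reads added, had a median of 0.28, and 90 in 100 members lay between -0.08 and 0.62. It was above 0 in 1727 members (91.2%) and below 0 in 166. Over all 4785 annotated genes with at least 100 sense reads, the share above 0 was 83.8%, with a median of 0.23. The size of the shift depended on the scale. Scaled to reads of 24 to 32 nt it was 0.20, and scaled to sense reads of noncoding genes it was 0.11.

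Individual UTRs seldom departed from that shift, and 1498 members lay within 0.25 of the median. At or above 1 there were 4 members, beside 0.188% of all genes, and all had few reads. Wapl, which releases cohesin, had 77 KO-named and 40 het-named reads. Sh3gl1 had 68 and 36, Rbm12 78 and 43, and Timm22 83 and 46. At or below -1 there was 1 member, Lars2 (log2 -1.04), beside 0.188% of all genes. These percentages are 9 of 4785 genes in each direction. Beside them, 4 and 1 of 1893 members are too few to be read as a difference from the background. Among members with at least 500 reads the highest ratios were those of the splicing-factor-like gene Sugp2 (323 and 229, log2 0.70), the zinc-finger gene Zfp568 (334 and 248, 0.64), the survival gene Bcl2l2 (285 and 215, 0.61) and the zinc transporter Slc39a14 (283 and 218, 0.58). The counts behind these 4 were low beside those of the leading UTRs.

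The lowest ratios among members with at least 500 reads were those of Lars2, Stambp, Tmem38b (2138 and 3300, log2 -0.42) and Olfr839-ps1 (247 and 343, -0.27). Lars2 had 292 starts and a first-U share of 23.6%, Tmem38b 21 and 11.9%, and Olfr839-ps1 30 and 92.5%. Stambp, the parent gene of the mutated pseudogene, had 82 starts and a first-U share of 91.0%. Its UTR (ENSMUSG00000006906.10, chr6:83543217-83543979, minus strand) had 174 KO-named and 373 het-named reads, 3.20 and 5.94 RPM, a ratio of 0.538 (0.447 to 0.646) and a log2 ratio of -0.89. The coding sequence of the same gene was not lower, with 137 and 110 reads, a ratio of 1.44 (1.11 to 1.86) and a log2 ratio of 0.52. The median log2 ratio was 0.28 over member UTRs. Over the coding sequences of the 796 genes with enough reads in both regions it was 0.21. The lower value was thus measured in the UTR and not in the coding sequence. Both values cover only reads with 1 place, so coding reads shared with another annotated transcript were left out. Places were judged among annotated transcripts alone, so whether some of the UTR's reads came from the pseudogene was not tested.

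Within the Stambp UTR, of 763 nt, the reads were concentrated between 401 and 600 nt after the stop codon. There were 38 KO-named and 75 het-named reads from 401 to 500 nt and 118 and 278 from 501 to 600 nt. Elsewhere the counts were at most 10 per 100 nt in either table. The leading start alone had 71 and 188 reads, and the other starts together had 103 and 185 (log2 -0.63), so the difference did not rest on a single sequence. With 1 library per table, genotype, animal and library cannot be told apart. Wdfy3, a scaffold protein of autophagy, was another leading UTR lower in the KO-named table, with 5445 and 7075 reads (0.888, 0.857 to 0.920).

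**Figure D5:**
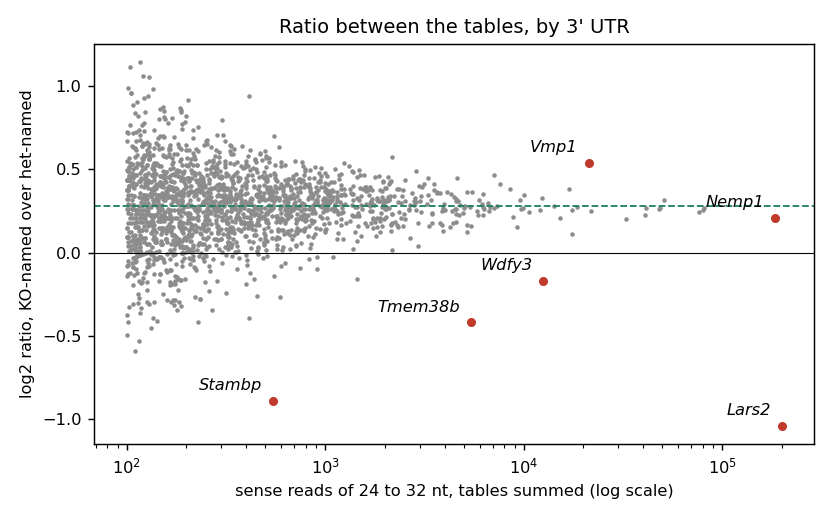
Log2 ratio of RPM, KO-named over het-named, against the reads of the summed tables (log axis) for the 1893 member 3' UTRs; 1 point per UTR, with no error bar. The dashed line is the median of 0.28; Lars2 (-1.04) and Stambp (-0.89) lie lowest, and Vmp1 (0.54), Wdfy3 (-0.17) and Tmem38b (-0.42) also stand off the line.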

How the data were processed

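Each deposited table lists distinct read sequences with raw counts of reads; the values are whole numbers and no scaling was found. How the authors trimmed and length-filtered reads was not given in the sources used here. Total RNA of testis was size-selected at 15 to 40 nt before library construction, per the labels' protocols. Reads of 24 to 32 nt were matched with 0 mismatches to both strands of GENCODE M21 transcripts (GRCm38) by hashing (numba 0.67.0, numpy 2.4.6, Python 3.11.15); pandas 2.3.3, matplotlib 3.10.9 and scipy 1.17.1 were also used. A place is a distinct start position among annotated transcripts, since no genome was used. Bases coding in any transcript were removed from the UTRs. Reads with several places, 29.0% of those over member UTRs, were left out. Some UTRs overlap each other, so member counts sum to slightly more than the reads counted singly. Intervals are exact (Clopper-Pearson, or conditional binomial for ratios) at 95%.

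The matching was tested on simulated data: 100% of 2000 reads were placed, with 0 wrong. For 200 of 1893 UTRs changed by a known amount, intervals held the true log2 ratio in 95% at -1 and 99% at 1; these simulations hold counting error alone.

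The named genes were the 12 members with most reads, the 4 highest and 4 lowest in first-U share, 29 to 31 nt share and log2 ratio among members with at least 500 reads, the 3 UTRs on each side of the minimum, up to 4 members per list, and Nemp1, Smyd5 and Wdfy3. Members, lists and rules were chosen with earlier results of these data known. Other genes named (members past the fold, with 32 nt reads, on the X chromosome, with most antisense reads or a low first-U share, and the remaining list members) were chosen after their values were seen. Alternatives were other minimums, lengths, scales, shared or distinct reads and UTRs without overlapping genes. A few items under the naming rule are not reported here.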

Additional observations from a re-analysis of the deposited data

How the results depend on the processing

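The median log2 ratio stayed above 0 in the 6 alternatives run for it. The number of member UTRs, 1893, became 2930 with a minimum of 50 reads and 1187 with 200, and it stayed within 1.5 times under the other 6 alternatives, from 1382 with distinct sequences to 2151 with reads of several places shared. The pooled first-U share of 82.4% was 80.9% with shared reads, 77.0% with distinct sequences, 82.5% with a minimum of 200 reads, 83.9% at 26 to 31 nt, 85.4% as the median over members and 88.0% without Lars2. The share of 29 to 31 nt, 42.7%, was 34.5% with distinct sequences, 43.2% with shared reads and also 43.2% without bases overlapping another gene, 32.1% as the median over members and 43.7% without Lars2. It was thus the larger length class in the pooled reads, where 26 to 28 nt took 42.0%, and the smaller one as a median over members, where 26 to 28 nt took 54.3%. Direct contact of ends and starts, 24.2%, was 12.6% with distinct sequences, 24.6% without overlapping bases, 21.5% at 26 to 31 nt and 20.8% without Lars2. Here the values with distinct sequences are over the 1382 UTRs with at least 100 distinct sequences, and over the 1893 members that for direct contact was 12%. The median log2 ratio of 0.28 was 0.20 scaled to 24 to 32 nt reads, 0.11 scaled to noncoding genes, 0.26 with distinct sequences and 0.28 with a minimum of 200 reads. The alternatives without Lars2 were chosen after seeing the data. No paired analysis was possible because each table is 1 library and neither is assigned to a genotype.

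Reads from unannotated sequence could not compete for a place, members near the minimum of 100 reads carry wide intervals, and variation between animals was not measured.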

Other observations

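Olfactory and vomeronasal receptor genes, whose names begin with Olfr or Vmn, formed a group of members with an unlike layout, noticed after the values were seen. Of 1317 such genes with a 3' UTR 15 were members (1.14%, beside 9.01% of all UTRs). All 15 had 0 reads in their coding sequence, as did 25 of all 1893 members. Reads with several places were left out, so reads shared between similar receptor genes were not counted. Their median number of starts was 10, against 111 in the other members, and the leading start held a median of 56.6% of reads against 11%. Olfr784 had 312 KO-named and 332 het-named reads, the most of the group. In Olfr2, with 258 and 155 reads, 91.0% came from a single start, and in Vmn1r224, with 55 and 45, all did.

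Shorter sense reads, of 18 to 23 nt, were also present in the member UTRs. They numbered 127078 KO-named and 248148 het-named, with a first U in 53.0% and 34.8%. Without Lars2 they numbered 72813 and 77642, or 1339 and 1237 RPM (log2 0.11), where with it the log2 ratio was -0.76. Of the reads left, Vmp1, whose UTR holds Mir21a, gave 29081 KO-named and 22693 het-named, and Tmem38b gave 3335 and 5348. Without both Lars2 and Vmp1 there were 43732 and 54949, or 804 and 875 RPM (log2 -0.12), so the sign of this ratio turned with Vmp1. These settings were chosen after seeing the data.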
